A study of Mus musculus with 2 samples.

Results

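The genes described here are 10 genes of blood vessel growth: the ligands Vegfa, Vegfb, Vegfc, Vegfd, Pgf, Angpt1, Angpt2 and Apln, and the neuropilin co-receptors Nrp1 and Nrp2. They were chosen by name, matched through the symbol in the deposited transcript tables to gene identifiers, and are 10 of 55536 annotated genes in the gene tables. All 10 were found. RNA came from the gastrocnemius (a calf muscle) of male B6CASTF1/J mice aged 10 days from The Jackson Laboratory, hybrids of the B6 and CAST strains. The study has 1 group of 2 biological replicates (replicates 1 and 2), each a total RNA library from 300 ng of RNA with ERCC spike-ins. No treatment, genotype or second condition is labelled, the animal numbers differ, and the donor code is the same. The data therefore give levels, transcript use and the spread between 2 libraries. No gene was tested: with 2 libraries, the smallest two-sided p of an exact sign-flip test is 0.5.

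VEGF ligands are secreted dimers that bind the receptor tyrosine kinases encoded by Flt1, Kdr and Flt4 on endothelial cells. VEGF-A is the main driver of vessel sprouting through the receptor encoded by Kdr, while VEGF-B and placental growth factor (Pgf) bind the receptor encoded by Flt1, and VEGF-C and VEGF-D act on lymphatic vessels through the receptor encoded by Flt4. Angiopoietin 1, from cells around the vessel, activates the receptor encoded by Tek and stabilises vessels, and angiopoietin 2, mostly from endothelial cells, competes with it. Apelin is a peptide ligand of the receptor encoded by Aplnr and is made by sprouting endothelium. Neuropilins hold VEGF ligands and class 3 semaphorins and pass them to VEGF receptors and plexins. In muscle, fibres are a source of VEGF-A, and vessels grow with the fibres after birth.

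Total expected counts were 38874862 for replicate 1 and 38160786 for replicate 2, of which the 10 genes took 9508 and 10728. Levels are in TPM, which is a length-scaled relative abundance, as mean ± SD with n = 2. A second deposited transcript table gives its own TPM. The ratio of a gene's TPM there to its TPM in the gene table had a median of 1.47. This median was over 11292 protein-coding genes at 1 TPM or more, so levels are compared only within a table. The tissue label was checked on 6 markers of skeletal muscle, all detected, led by Acta1 at 23397 ± 1008 TPM. Markers of endothelial cells (8 of 8), lymphatic endothelium (5 of 5), mural cells (8 of 8) and fibroblasts (6 of 6) also reached 1 TPM in both libraries. In such bulk tissue, fewer cells of a type and less RNA per cell cannot be told apart.

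All 10 genes reached 1 TPM in both libraries, as did 51.4% of the 22028 protein-coding genes. Their levels spanned a wide range, from Vegfb at 44.7 ± 6.41 TPM to Pgf at 1.12 ± 0.113 TPM. Vegfb, Vegfa and Nrp1 formed the upper end, Apln, Nrp2 and Angpt1 followed, and Angpt2, Vegfc, Vegfd and Pgf lay close together at the lower end. The median over the 10 genes was 5.05 TPM, against 1.36 TPM over all protein-coding genes. The order was Vegfb, Vegfa, Nrp1, Apln, Nrp2, Angpt1, Angpt2, Vegfc, Vegfd and Pgf. The ranges of neighbours overlapped between Angpt2 and Vegfc, between Vegfc and Vegfd and between Vegfd and Pgf, so the order at the lower end did not exceed the spread. The second table gave the same order, with overlapping ranges for Vegfc and Vegfd and for Vegfd and Pgf.

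**Figure D1:**
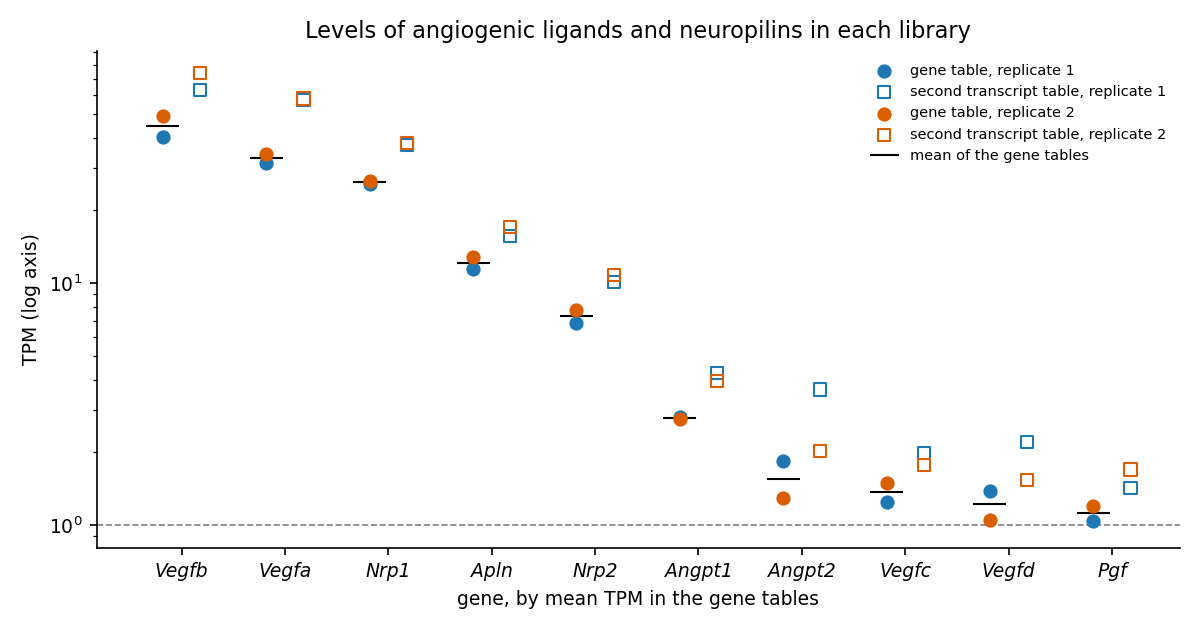
TPM of the 10 genes (log axis) in each library, in the gene tables (filled circles, with a line at the mean) and the second transcript tables (open squares). The dashed line marks 1 TPM; all 10 genes lie above it, and the second tables lie higher for every gene.

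Vegfb and Vegfa supplied nearly all VEGF ligand transcripts. Vegfb, on chromosome 19 (6982473 to 6987651, minus strand, mm10), had 40.2 TPM from 1433 counts in replicate 1 and 49.2 TPM from 1765 counts in replicate 2. Vegfa, on chromosome 17 (46016993 to 46032369, minus strand), had 31.4 TPM from 1864 counts and 34.2 TPM from 2362 counts, a mean of 32.8 ± 1.94 TPM. Vegfb lay above Vegfa in both libraries, without overlap. Among protein-coding genes, Vegfb ranked 1394 and 1119 and Vegfa 1800 and 1629 in replicates 1 and 2. Of the summed TPM of the 5 VEGF family ligands, 75.2 and 87.1 TPM, Vegfb held 54.9% ± 2.22 and Vegfa 40.5% ± 1.80.

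The share of Vegfa rests in part on transcripts without a coding sequence. Of its 13 annotated transcripts, 5 are retained-intron transcripts, which together held 47.9% of the gene's TPM in replicate 1 and 33.1% in replicate 2. They held only 13.9% and 8.21% of its expected counts, because they are short and TPM divides by length. From coding transcripts alone, Vegfa had 16.4 and 22.8 TPM, below Nrp1, whose coding transcript had 23.9 and 25.3 TPM. On that basis Vegfa made 28.8% of the VEGF ligands and Vegfb 65.8%. Vegfb itself had 0.890% and 0.720% of its TPM in its retained-intron transcript.

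**Figure D2:**
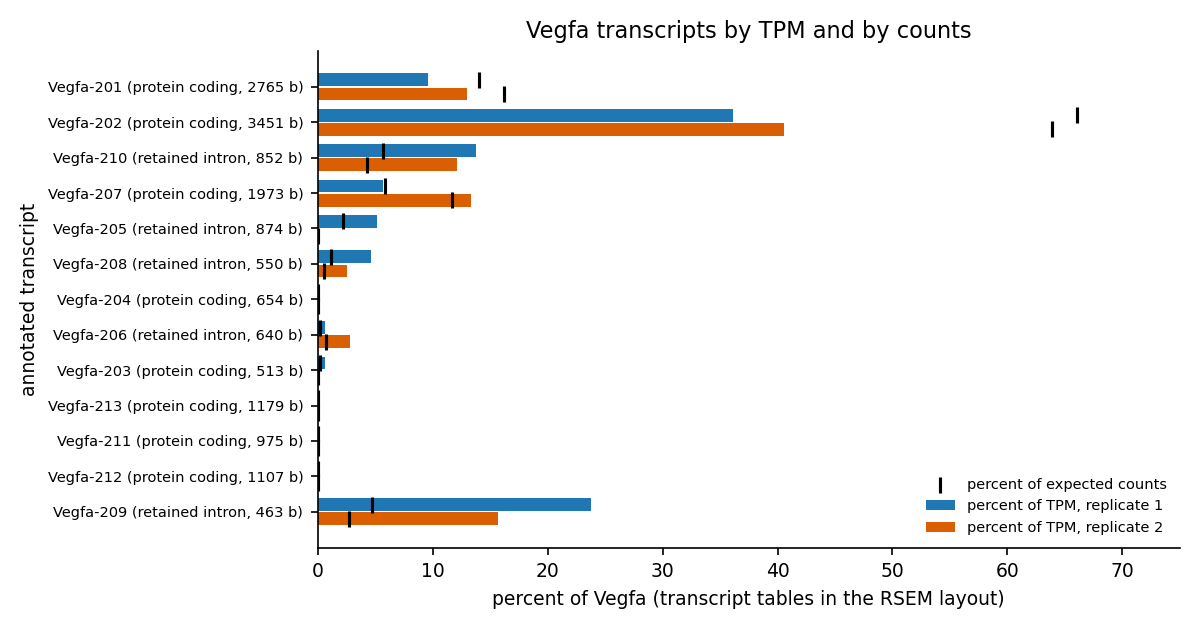
The 13 annotated Vegfa transcripts with their length in bases (b): bars give the percent of the gene's TPM in each library, ticks the percent of its expected counts. Vegfa-202 leads on both scales, and the short retained-intron transcripts Vegfa-209 and Vegfa-210 take a larger share of TPM than of counts.

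The coding transcripts of Vegfa differ in exons 6 and 7, which encode basic stretches that bind heparan sulphate and, for exon 7, neuropilins. Without these exons VEGF-A diffuses freely, and with both it is held at the cell surface and matrix. The coding joins from exon 5 to the end are shown for the 3 leading forms, from the GENCODE M21 transcripts on GRCm38 (mm10), 5′ to 3′ on the transcript, with the bases of exons 6 and 7 in capitals.
Vegfa-201: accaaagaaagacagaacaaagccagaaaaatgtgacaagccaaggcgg
Vegfa-202: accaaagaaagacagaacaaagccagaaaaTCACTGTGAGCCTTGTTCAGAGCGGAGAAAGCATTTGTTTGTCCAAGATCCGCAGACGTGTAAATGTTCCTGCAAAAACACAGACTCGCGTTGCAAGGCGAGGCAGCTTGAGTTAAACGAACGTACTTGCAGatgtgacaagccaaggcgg
Vegfa-207: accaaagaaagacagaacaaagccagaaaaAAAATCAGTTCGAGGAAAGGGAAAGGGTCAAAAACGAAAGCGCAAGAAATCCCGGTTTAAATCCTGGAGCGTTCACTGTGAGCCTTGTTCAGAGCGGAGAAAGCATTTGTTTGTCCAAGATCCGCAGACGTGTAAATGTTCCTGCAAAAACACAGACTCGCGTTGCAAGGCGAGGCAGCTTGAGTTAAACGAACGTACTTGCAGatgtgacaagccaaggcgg
Vegfa-201 (the VEGF120 type) joins exon 5 directly to exon 8. Vegfa-202 (the VEGF164 type) adds exon 7, 132 bases at chr17:46020991-46021122. Vegfa-207 (the VEGF188 type) adds exon 6 as well, 72 bases at chr17:46022277-46022348. Both insertions are whole numbers of codons and keep the frame of the last 19 coding bases. The annotated coding sequence has 146 codons in Vegfa-201, 368 in Vegfa-202 and 392 in Vegfa-207. Vegfa-201 thus also differs from the other forms shown outside exons 6 and 7.

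Transcripts with exon 7 alone led in both libraries and both tables. They held 69.4% of Vegfa coding TPM in replicate 1 and 60.7% in replicate 2, a mean of 65.0% ± 6.12, nearly all of it from Vegfa-202, with 1233 and 1509 counts. The form with neither exon held 18.4% and 19.4%, and the form with both held 10.9% and 19.9%. The form with exon 6 alone, Vegfa-203, had 2.78 counts in replicate 1 and 0 in replicate 2. The ranges of the form with neither exon and the form with both overlapped, so their order did not exceed the spread. The second table placed the form without either exon at 31.7% and 6.96% and that with both at 4.70% and 10.3%, which leaves the split between them uncertain, while exon 7 alone had 63.6% and 82.7%.

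Vegfb also comes in 2 coding forms that share the receptor-binding part and differ in the carboxyl end, one basic and bound to heparan sulphate, the other more soluble. The coding stretch from exon 5 on is shown, to the last codon before the stop of each form, with the bases that are coding in only 1 form in capitals.
Vegfb-202: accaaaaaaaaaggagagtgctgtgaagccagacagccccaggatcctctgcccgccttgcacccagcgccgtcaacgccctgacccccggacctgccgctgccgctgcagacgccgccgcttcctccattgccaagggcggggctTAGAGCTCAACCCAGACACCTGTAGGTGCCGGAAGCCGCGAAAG
Vegfb-201: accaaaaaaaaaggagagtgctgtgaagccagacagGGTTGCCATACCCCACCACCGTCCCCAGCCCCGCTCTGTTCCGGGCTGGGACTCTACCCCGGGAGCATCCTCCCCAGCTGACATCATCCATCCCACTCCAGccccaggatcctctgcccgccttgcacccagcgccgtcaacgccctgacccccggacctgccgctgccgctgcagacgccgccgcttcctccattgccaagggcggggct
Vegfb-202 (the VEGF-B167 type, 188 codons) lacks a stretch of 101 bases at chr19:6985496-6985596 that Vegfb-201 (the VEGF-B186 type, 207 codons) keeps. This length is not a multiple of 3, so the shared 110 bases that follow are read in another frame in each form. Vegfb-202 held 61.0% of coding TPM in replicate 1 and 58.8% in replicate 2, a mean of 59.9% ± 1.53. Vegfb-201 held 39.0% and 41.2%. The 2 forms did not overlap in either table, and the second gave Vegfb-202 63.5% and 56.6%.

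The lymphatic ligands and placental growth factor were low. Vegfc, on chromosome 8 (54077606 to 54187096, plus strand), had 95 counts and 1.25 TPM in replicate 1 and 114 counts and 1.49 TPM in replicate 2. Vegfd, on chromosome X (164373378 to 164402650, plus strand), had 88 counts and 1.39 TPM, then 62 counts and 1.05 TPM. Pgf, on chromosome 12 (85166635 to 85177790, minus strand), had 49 counts and 1.04 TPM, then 58 counts and 1.20 TPM. The ranges overlapped between Vegfc and Vegfd and between Vegfd and Pgf, while Pgf lay below Vegfc in both libraries. Each held between 1.21% and 1.85% of VEGF ligand TPM in either library. A count of 3 would give at most 0.0637 TPM for these genes, so all lay well above the limit of detection by counts. Vegfc-201 took all of the TPM of its gene in both libraries, Vegfd-201 took 100% and 88.8%, and Pgf-201 took 89.6% and 100%. In the second table Vegfc-201 took 84.0% and 100%, Vegfd-201 100% and 100%, and Pgf-201 78.4% and 73.1%.

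Angpt1 exceeded Angpt2 in both libraries. Angpt1, on chromosome 15 (42424723 to 42676977, minus strand), had 364 counts and 2.80 TPM in replicate 1 and 362 counts and 2.76 TPM in replicate 2. Angpt2, on chromosome 8 (18690263 to 18741562, minus strand), had 171 counts and 1.84 TPM, then 145 counts and 1.29 TPM. The log2 ratio of Angpt1 over Angpt2, on the log2(TPM + 0.1) scale used for all pairs of genes, was 0.58 in replicate 1 and 1.04 in replicate 2. Its mean was 0.81 ± 0.33, or 1.75-fold, and in the second table it was 0.23 and 0.93. Angpt1 differed less in TPM between the 2 libraries than Angpt2, but the intervals of both count ratios, given below, included 0. Nearly all of the TPM of Angpt1 came from Angpt1-201, at 94.6% and 95.4%. For Angpt2, the short non-coding transcript Angpt2-202 took 20.3% of TPM in replicate 1, from 6.67 counts, and 0% in replicate 2. In the second table Angpt2-202 took 46.0% and 15.7%. From its coding transcript alone, Angpt2 had 1.46 and 1.29 TPM. Angpt2 lies wholly inside Mcph1, a gene on the opposite strand with 174 and 191 counts, and shares 0 annotated exon bases with it. The sources used here do not say whether strand entered the counting, and without it reads of overlapping genes cannot be told apart. Angpt1 shares 737 exon bases with an antisense gene, Gm17473, that had 3 and 7 counts.

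Apln, on chromosome X (48025146 to 48034853, minus strand), was the third ligand in level, well above the angiopoietins. It had 1134 counts and 11.5 TPM in replicate 1 and 1269 counts and 12.8 TPM in replicate 2, a mean of 12.1 ± 0.962 TPM. Its single annotated transcript of 3 exons carries all of this. Its receptor gene Aplnr was higher, at 28.6 and 27.8 TPM, and the log2 ratio of Apln over Aplnr was -1.31 and -1.11. Apela, the other ligand gene of that receptor, had 0 counts in both libraries, which allows up to 3 counts in each.

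Nrp1 was the leading neuropilin. Nrp1, on chromosome 8 (128358604 to 128503363, plus strand), had 2885 counts and 25.7 TPM in replicate 1 and 2993 counts and 26.5 TPM in replicate 2, the most counts of the 10 genes. Nrp2, on chromosome 1 (62703285 to 62818695, plus strand), had 1425 counts and 6.85 TPM, then 1598 counts and 7.78 TPM. The neuropilins did not overlap, and the log2 ratio of Nrp1 over Nrp2 was 1.89 and 1.76, a mean of 1.82 ± 0.10 or 3.54-fold. Nrp1-201, which has 17 exons and is the gene's only coding transcript in the annotation, took 92.8% and 95.5% of TPM. The other 3 Nrp1 transcripts are annotated with a retained intron.

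Nrp2 has 6 annotated coding transcripts that differ near the end of the outer part of the protein and in its membrane-spanning and inner part. Neuropilin 2a and 2b end differently: only the a form carries the carboxyl end that binds the adaptor encoded by Gipc1. The coding stretch around the branch point is shown with 21 common bases (chr1:62786281-62786301) first. The a forms end here with the first 30 bases of their last exon, in lower case, while capitals mark the extension, the cassette exon or, in Nrp2-205, the first 30 bases of the last exon of the b form.
Nrp2-204: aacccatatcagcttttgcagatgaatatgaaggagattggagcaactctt
Nrp2-203: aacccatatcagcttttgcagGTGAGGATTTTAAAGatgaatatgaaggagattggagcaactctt
Nrp2-202: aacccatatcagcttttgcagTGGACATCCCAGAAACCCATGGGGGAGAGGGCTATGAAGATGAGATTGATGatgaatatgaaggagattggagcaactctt
Nrp2-205: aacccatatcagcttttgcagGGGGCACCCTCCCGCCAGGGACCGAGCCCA
Nrp2-203 has an extension of 15 bases (chr1:62786302-62786316) and Nrp2-202 a cassette exon of 51 bases (chr1:62812534-62812584), both whole numbers of codons. The last coding exon of the b form begins at base 62795709 and that of the a form at base 62815333, on the plus strand.

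The a form of Nrp2 prevailed. Its 4 transcripts held 77.4% of coding TPM in replicate 1 and 74.6% in replicate 2, a mean of 76.0% ± 1.97, against 22.6% and 25.4% for the b form. In the second table the a form held 75.7% and 73.6%. Nrp2-204, the a form with neither extension nor cassette, led the gene at 47.6% and 40.4% of TPM. The cassette exon was in 28.8% and 28.1% of a-form TPM, and in 39.2% and 29.5% in the second table. The extension was in 6.55% and 14.8% of all coding TPM, and in 3.49% and 4.98% in the second table. Thus the split into a and b differed little between libraries and tables, while the shares of the small insertions varied with both table and library.

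**Figure D3:**
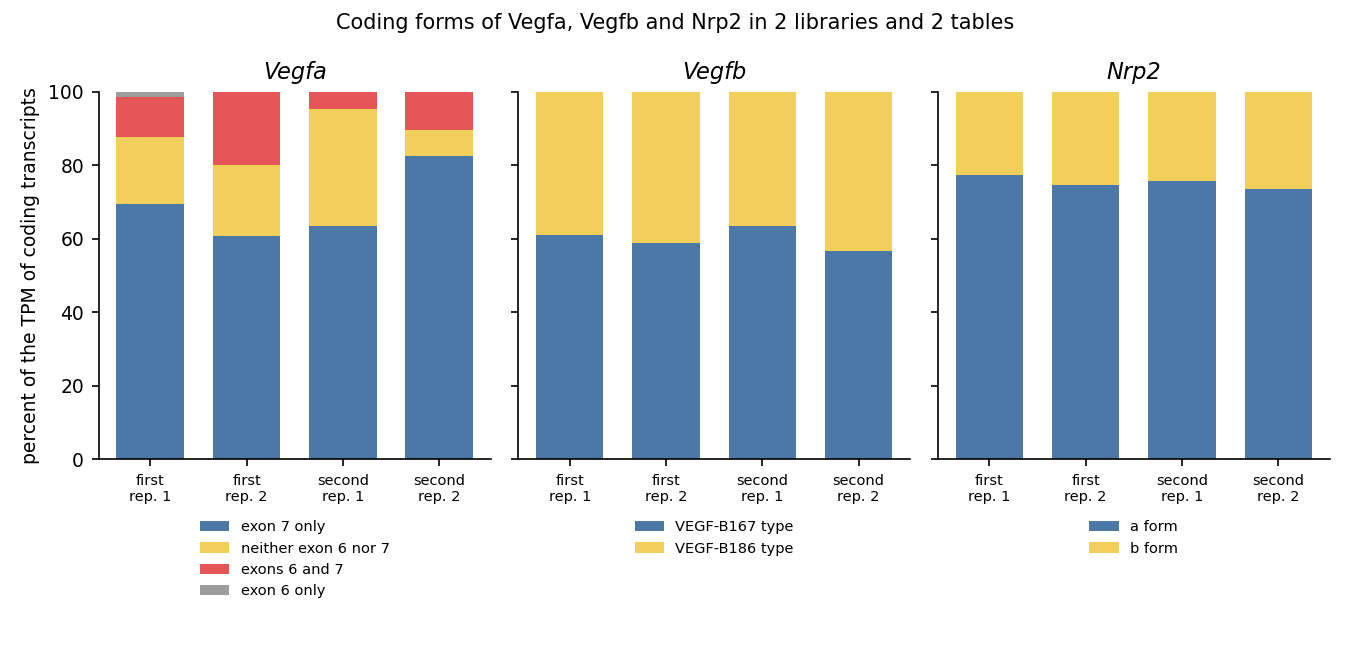
Percent of coding-transcript TPM held by each form of Vegfa, Vegfb and Nrp2, in replicates (rep.) 1 and 2 of the first (RSEM layout) and second transcript tables. Exon 7 alone, the VEGF-B167 type and the a form lead in all 4 bars of their gene; the shares of the smaller Vegfa forms differ between libraries and tables.

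For all 10 genes the leading transcript was the same in both tables. The median share of the leading transcript over the 10 genes was 93.3% of TPM. Vegfa and Nrp2 were the genes whose leading transcript held under 50% of TPM, at 38.4% ± 3.18 and 44.0% ± 5.11. The deposited uncertainty of the gene count, a posterior standard deviation, was 0 in both libraries for all 10 genes. It was 0 for 82.4% of the 13137 protein-coding genes averaging 20 or more expected counts, so these genes resemble most others in this.

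Between the libraries, 8 of the 10 genes had more scaled counts in replicate 2, all but Vegfd and Angpt2, and 53.3% of the 13137 protein-coding genes did. The log2 ratio is replicate 2 over replicate 1 of expected counts scaled by TMM, and its 95% interval covers counting error only. The interval excluded 0 for 5 genes, against 32.3% of protein-coding genes: Vegfa at 0.41 (0.32 to 0.50), Vegfb at 0.37 (0.27 to 0.47), Nrp2 at 0.24 (0.13 to 0.34), Apln at 0.23 (0.12 to 0.35) and Nrp1 at 0.12 (0.05 to 0.20). These are the 5 genes with the most counts and hence the narrowest intervals. None of the 10 was over 1.5-fold apart, against 4.31% of protein-coding genes, and the furthest apart was Vegfd at 1.35-fold, with a ratio of -0.43 (-0.93 to 0.05). The median ratio was 0.23 over the 10 genes and 0.01 over protein-coding genes. The median size of the ratio, regardless of sign, was 0.27 and 0.12. The spread between mice of the group cannot be estimated well from 2 animals.

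Ratios of the low genes were not resolved at this depth. Vegfc had 0.33 (-0.07 to 0.74), Pgf 0.31 (-0.26 to 0.89), Angpt1 0.06 (-0.15 to 0.28) and Angpt2 -0.17 (-0.50 to 0.16). The second table gave count ratios within 0.5 of these for all 10 genes, and 0.959% of 13132 protein-coding genes differed by more than that. In the gene tables, ratios of TPM departed most from ratios of counts for Vegfa and Angpt2. Vegfa had a TPM ratio of 0.12, since its effective length, averaged over transcripts by their TPM, was 1830 bases in replicate 1 and 2131 in replicate 2. Angpt2 had a TPM ratio of -0.51, with effective lengths of 2872 and 3461 bases. From coding transcripts alone the TPM ratios were 0.48 for Vegfa and -0.18 for Angpt2, close to the counts. The direction differed by scale for 2 genes with intervals that include 0: Angpt1 had a TPM ratio of -0.02, and in the second table Vegfc had a TPM ratio of -0.16 and a count ratio of 0.18.

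**Figure D4:**
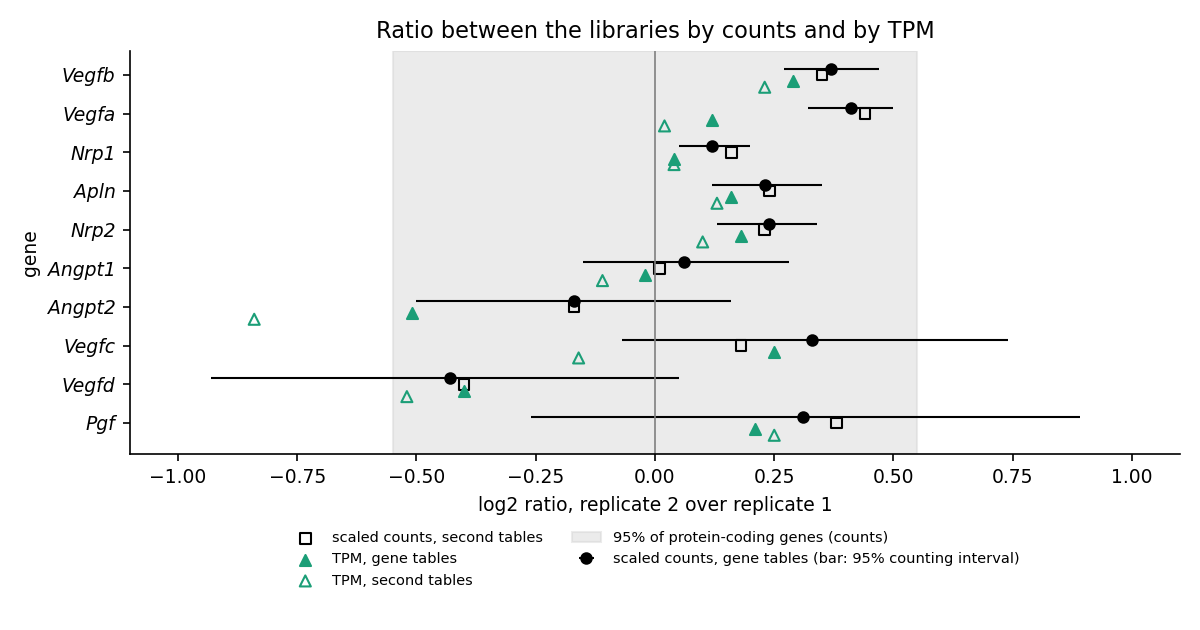
Log2 ratio of replicate 2 over replicate 1 for the 10 genes by scaled counts (black, with 95% counting intervals for the gene tables) and by TPM (green), in gene tables (filled) and second tables (open). The grey band, up to 0.55 on either side of 0, holds 95% of the 13137 protein-coding genes; the TPM ratios of Vegfa and Angpt2 lie left of their count ratios.

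Marker lists of other cells lay on both sides between the libraries. Endothelial markers had a median ratio of 0.20, with 7 of 8 higher in replicate 2 and summed levels of 227 and 236 TPM. Mural cell markers had 0.16, with 7 of 8 higher and sums of 427 and 477 TPM, of which Acta2 alone made 227 and 275 TPM. Lymphatic markers had -0.11, with 2 of 5 higher and sums of 24.6 and 21.5 TPM. Fibroblast markers had -0.10, with 5 of 6 lower in replicate 2, and Schwann cell markers -0.11, with 4 of 5 lower. Erythroid markers, mostly haemoglobin genes, had 0.92, with 5 of 5 higher and sums of 1138 and 2082 TPM. Muscle markers had 0.10, with 4 of 6 higher. No marker of these lists was at 0 counts, and the part of these cells in the ratios of the ligands was not tested.

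The receptors and partners of these ligands were present at levels of the same order. Of 12 such genes 11 reached 1 TPM in both libraries, all but Plxna3, at 1.07 and 0.770 TPM. Plxnd1, a semaphorin receptor of endothelium, was highest at 38.9 ± 0.764 TPM, followed by Aplnr at 28.2 ± 0.559 and Tie1, an orphan partner of the angiopoietin receptor, at 17.6 ± 2.22 TPM. Kdr had 16.4 and 17.9 TPM and exceeded Flt1, at 6.26 and 8.51 TPM, by a log2 ratio of 1.22 ± 0.22. Relative to Kdr, Nrp1 lay 0.61 ± 0.06 higher and Vegfa 0.93 ± 0.01 higher on the log2 scale. The Vegfa value includes its retained-intron transcripts. From coding transcripts alone Vegfa had 16.4 TPM in replicate 1, the same as Kdr, and 22.8 TPM in replicate 2. Tek, at 10.3 and 11.0 TPM, exceeded its ligand Angpt1, whose log2 ratio over Tek was -1.90 ± 0.08. Flt4 was low like its ligands, at 1.80 and 2.59 TPM, with Vegfc over Flt4 at -0.63 ± 0.19.

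Between libraries, replicate 2 was the higher for 9 of the 12 receptor and partner genes, and their median count ratio was 0.20. The 3 lower genes were the plexins Plxna1, Plxna2 and Plxna4, at -0.25, -0.10 and -0.29. Flt4 was the only one over 1.5-fold apart, at 0.61 (0.41 to 0.81), and Flt1 had 0.43 (0.32 to 0.55).

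**Figure D5:**
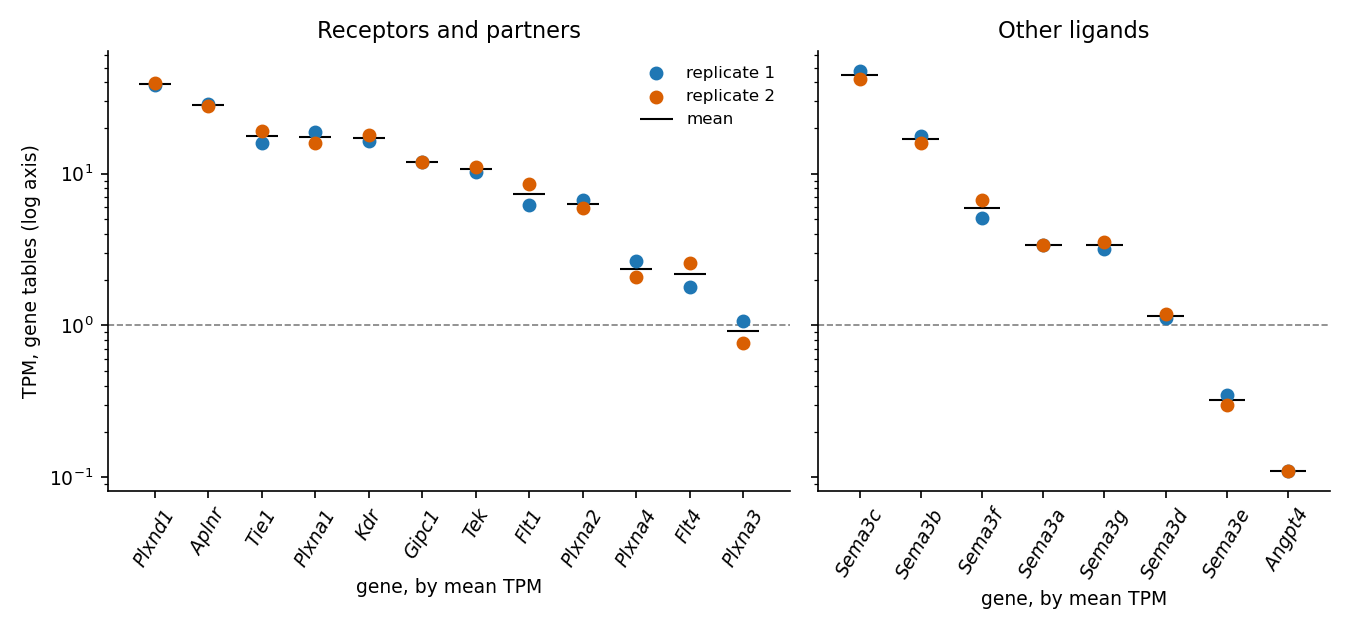
TPM (log axis) of 12 receptor and partner genes and of 8 other ligands of these receptors and of neuropilins in each library, with a line at the mean and a dashed line at 1 TPM. Plxnd1 and Sema3c lead their panels; Apela, at 0 counts, cannot be shown on this axis.

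Class 3 semaphorins, the other neuropilin ligands, were led by Sema3c at 44.7 ± 4.16 TPM, a level like that of Vegfb, then Sema3b at 16.8 ± 1.41 and Sema3f at 5.91 ± 1.18 TPM. Of 9 other ligands 6 reached 1 TPM in both libraries, while Sema3e, Angpt4 and Apela did not. Their median ratio over 7 genes with enough counts was 0.01, with Sema3f at 0.37 and Sema3a at -0.28. Angpt4, the third angiopoietin gene, had 8 counts in each library.

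Of 10 genes that process or restrain the ligands, 9 reached 1 TPM in both libraries. The exception was Ccbe1, a cofactor in VEGF-C maturation, with 220 and 180 counts and 1.18 and 0.990 TPM. Furin, a protease that cleaves VEGF-C and VEGF-D precursors, had 27.4 ± 2.24 TPM, and the inhibitors of vessel growth Thbs2 and Vash1 had 27.3 ± 1.30 and 13.8 ± 1.44 TPM. The list's median ratio was -0.08, with 3 higher and 7 lower in replicate 2. Thbs1, an inhibitor like Thbs2, was the only member over 1.5-fold apart, with 10.7 and 15.6 TPM and a ratio of 0.62 (0.54 to 0.71). Adamts3, which cleaves VEGF-C, had -0.39 (-0.68 to -0.11).

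All 10 listed regulators upstream of Vegfa reached 1 TPM in both libraries, with a median ratio of 0.01. Hif1an and Egln2, oxygen-dependent hydroxylases that restrain hypoxia-inducible factors, had 38.8 ± 0.141 and 38.0 ± 1.31 TPM. Epas1, the hypoxia-inducible factor gene prominent in endothelium, had 32.7 and 39.9 TPM and the largest ratio, 0.36 (0.31 to 0.41). Esrra and Ppargc1a, which activate Vegfa in muscle apart from hypoxia, had 0.26 (0.16 to 0.37) and 0.25 (0.14 to 0.36). Hif1a had 0.00 (-0.10 to 0.09). The part of these regulators in the Vegfa ratio of 0.41 was not tested. Of 10 other hypoxia-inducible genes 8 reached 1 TPM in both libraries, all but Ankrd37 and Car9, led by Bnip3 at 36.2 ± 3.67 and Pdk1 at 24.8 ± 2.08 TPM. Their median ratio was -0.07, with 3 higher and 7 lower in replicate 2. The intervals of the 3 higher genes excluded 0. Among the 7 lower genes, so did those of Pfkfb4, Pfkfb3 at -0.22 (-0.37 to -0.06) and Ndrg1 at -0.12 (-0.23 to -0.01). Those of Ankrd37 (-1.24 to 0.46), Car9 (-0.88 to 0.45), Adm and P4ha1 included 0. Slc2a1, a glucose transporter, had 0.48 (0.21 to 0.75) and Pfkfb4, a glycolytic regulator, -0.49 (-0.63 to -0.34).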

How the data were processed

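The 2 total RNA libraries (1 group, replicates 1 and 2 by the labels' biological replicate numbers) were used. The authors deposited expected counts, posterior mean counts, TPM and each transcript's percent of its gene in the layout of RSEM, per the file headers. Accompanying notes name mm10 and GENCODE M21. The second deposited transcript table, in kallisto layout, gives estimated counts and TPM. The deposited posterior standard deviation of a gene's count, a score of uncertainty, comes from the same gene tables. No source used here names the aligner, the program versions or the use of strand. The mice are hybrids aligned to mm10, and loss of reads of 1 allele was not tested. Effective lengths imply a fragment length of 100 in the gene tables and of 347 and 355 in the second tables, which affects the TPM of short transcripts.

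Of 81881 features, the 96 spike-ins (0.741% and 0.735% of counts) and 26249 features that match no annotated gene (48.96 and 40.97 counts) were left out of scaling. Expected counts were rounded, and libraries were scaled by TMM (edgeR 4.0.16, R 4.3.3) over 16214 genes averaging 10 or more counts. Log2 ratios used a prior count of 0.5 and genes averaging 20 or more. Intervals of 95% are exact binomial (scipy 1.17.1) and, like the limit of 3 counts, cover counting error only, since without molecular identifiers reads may repeat a molecule. A depth of 3 counts at 1000 bases is 0.0925 and 0.0924 TPM. The code for ratios and intervals was tried on simulated counts with counting error only and known library sizes. This cannot show how the intervals perform where animals differ.

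Members and gene lists were chosen with earlier results of these data known. Named were all 10 genes and, per list, the 3 highest in mean TPM and the 3 with the largest ratios. Exceptions, named after values were seen, are Kdr and Tek, genes under 1 TPM, the plexins that were lower in replicate 2 and Hif1a. Others are the hypoxia-inducible genes lower in replicate 2, overlapping genes, and the coding forms. Not every gene the rule allows is given with values. Alternatives were the second table, posterior means, other scaling (DESeq2 1.42.0 size factors, library totals, spike-ins), prior counts, pseudocounts, filters and leaving out a replicate. Coding forms and coding transcripts alone were added after seeing the data.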

Additional observations from a re-analysis of the deposited data

How the results depend on the processing

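Of the 60 alternative values of the single genes' log2 ratios between libraries, all 60 kept their direction and moved by less than the counting interval, and 8 of 10 genes stayed higher in replicate 2 under each scaling, table and prior count tried. Vegfa ranged from 0.37 to 0.44 and Vegfd from -0.48 to -0.40. Leaving out a replicate gives no ratio, and no paired analysis was possible because there is 1 group. Among the main results, 71 alternative values were labelled as unchanged and 19 as moved. For levels, shares and ratios of gene pairs, a value was unchanged if it stayed within the SD between libraries. Leaving out a replicate could not exceed this, because either library lies less than the SD from the mean of both. Those values therefore do not test robustness. Numbers of genes have no SD, and 8 of 10 genes in place was also labelled unchanged. The 71 is thus not a measure of robustness. In the second table the median level was 7.27 TPM in place of 5.05, the Vegfa share of VEGF ligands 44.0% in place of 40.5%, and the Vegfb share 52.0% in place of 54.9%. From coding transcripts alone these shares were 28.8% and 65.8%. Nrp1 over Nrp2 was 1.71 with a pseudocount of 1 TPM in place of 1.82. At 2 TPM in place of 1 TPM, 6 of 10 genes reached the threshold in both libraries. With a single replicate, 6 to 8 of 10 genes kept their place in the order, all changes being among Angpt2, Vegfc, Vegfd and Pgf. The median share of the leading transcript, 93.3%, was 84.3% in the second table and 79.1% by posterior means. The second table gave 73.2% in place of 65.0% for Vegfa with exon 7 alone, 7.50% in place of 15.4% with both exons, 34.3% in place of 28.5% for the Nrp2 cassette and 4.24% in place of 10.7% for the extension. As shares of counts, Vegfa with exon 7 alone was 73.2%, with neither exon 16.9%, Vegfb-202 57.2% and the cassette 27.3%. Posterior means gave 30.8% for the cassette. The TPM of the 2 tables are on different scales, with a median ratio of 1.47, so the median levels of 7.27 and 5.05 TPM are not directly comparable. The cause of the shifts in shares was not tested. Depth limits Vegfc, Vegfd and Pgf, with 49 to 114 counts a library.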
